A study of Rattus norvegicus with 325 samples.

Results

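The gastrocnemius, the large calf muscle, was compared between male Sprague Dawley rats of 24 months and of 21 months. Every library whose label named this muscle and 1 of these ages was taken, which gave 9 libraries at 24 months and 9 at 21 months, 18 of the 73 gastrocnemius libraries of the series, which held 252 more from 3 other muscles, the tibialis anterior, soleus and diaphragm. The ages ran from 6 to 27 months. All rats were untreated males of an outbred strain, aged by the supplier and moved to the study site some weeks before collection. The labels give age as the design difference between the groups, and their library numbers differed as well, with 7 of the 9 older libraries above the span of the younger ones. Within a muscle each library came from a different animal. All tissue of an age group was taken on a single day, and the effect of that day cannot be told apart from that of age in any comparison below.

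Old muscle fibers lose contact with their motor nerve. A fiber without its nerve makes embryonic genes again, such as the gamma subunit of the acetylcholine receptor and embryonic myosin. It also makes more of the receptor subunits and of the kinase Musk, which an innervated adult fiber uses at the junction only. The fast fibers that fill most of the gastrocnemius burn glycogen by glycolysis and carry the fast myosin heavy chains. The comparison asks which of these genes moved between 21 and 24 months, late in the life of this strain, and whether the move was larger than that of the neighboring 3-month steps.

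The promoters of the receptor subunits are shown because the subunit genes gave some of the largest rises reported here, and because myogenic regulatory factors such as Myog bind E-boxes. Each line gives the 250 bases before the start of the gene in the RefSeq annotation of the GRCr8 rat genome, read 5′ to 3′ on the strand of the gene, with the E-box CAGCTG in capitals. This motif reads the same on both strands. Only this form of the E-box was marked and counted, and other forms may stand in the same windows. GRCr8 is a later build than the one the counts were made on.
Chrna1, chr3:78877354-78877603, minus strand: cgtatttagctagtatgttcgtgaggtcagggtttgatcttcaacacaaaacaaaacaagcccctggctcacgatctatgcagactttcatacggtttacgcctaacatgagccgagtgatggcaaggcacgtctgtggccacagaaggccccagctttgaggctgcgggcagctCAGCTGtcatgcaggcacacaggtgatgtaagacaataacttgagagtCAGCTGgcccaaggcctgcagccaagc
Chrnd, chr9:95310066-95310315, plus strand: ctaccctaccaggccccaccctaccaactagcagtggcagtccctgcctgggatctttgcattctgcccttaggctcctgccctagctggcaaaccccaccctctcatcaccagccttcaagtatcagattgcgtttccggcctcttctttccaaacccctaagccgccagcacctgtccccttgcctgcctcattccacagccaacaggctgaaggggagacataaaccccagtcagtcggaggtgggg
Chrng, chr9:95325734-95325983, plus strand: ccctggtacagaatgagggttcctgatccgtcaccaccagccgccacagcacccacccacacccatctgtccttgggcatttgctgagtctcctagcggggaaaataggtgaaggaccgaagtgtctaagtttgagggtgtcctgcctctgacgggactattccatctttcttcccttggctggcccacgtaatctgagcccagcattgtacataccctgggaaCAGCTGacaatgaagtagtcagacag
Chrne, chr10:55834155-55834404, minus strand: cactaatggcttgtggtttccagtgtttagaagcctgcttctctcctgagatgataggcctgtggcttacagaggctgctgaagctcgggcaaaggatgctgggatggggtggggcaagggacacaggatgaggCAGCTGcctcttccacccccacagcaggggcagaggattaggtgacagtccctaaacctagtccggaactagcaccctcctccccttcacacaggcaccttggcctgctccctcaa
The window held 2 copies of CAGCTG at Chrna1, 1 at Chrng, 1 at Chrne and 0 at Chrnd, and the window of Chrnb1, not printed, held 1. Of all 33469 promoters of this length in the same table, 12.0% held at least 1 copy, against 13.1% of the 9012 promoters of genes tested here, 17.0% of the 377 promoters found for genes called higher at 24 months and 21.4% of the 220 found for genes called lower. These shares describe letters and not binding, and they were not tested against each other.

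Total counts ran from 24.4 to 67.2 M at 21 months and from 19.4 to 56.6 M at 24 months. Ribosomal RNA genes took 0.418% to 3.78% of the counts at 21 months and 0.435% to 2.89% at 24 months. The 10 most abundant genes took 25.5% ± 1.23 (SD, n = 9) of the counts at 21 months and 21.5% ± 3.46 (SD, n = 9) at 24 months, a difference that passed an exact permutation test (two-sided, adjusted p = 0.0199 over 3 library measures, where the total count and the ribosomal share each gave 0.182). The markers of muscle were abundant, with Ckm, the muscle creatine kinase, at a median of 17000 CPM (counts scaled to the size of the library) at 21 months and 10200 at 24 months, and Myh4, the fastest myosin heavy chain, at 38900 and 24500.

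At 24 months the libraries of replicates 0 and 3 lay closest to 21 months, with a mean shift of the called genes of 0.26 and 0.43 on the log2 scale where the other 7 libraries lay between 0.92 and 1.52, and their 10 most abundant genes took 28.3% and 25.8% of the counts. At 21 months replicate 7 lay closest to 24 months, with a shift of 0.46 where the other 8 lay between -0.24 and 0.11. Genes made by the liver were also unevenly spread. Alb, serum albumin, had between 6 and 1675 counts at 21 months (median 391) and between 1 and 22 at 24 months (median 4), and Ahsg had 0 counts in all 9 older libraries and a median of 26 in the younger ones. The part of the liver transcripts in the comparison was not tested beyond a fit that takes their mean level as a covariate, given below.

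A total of 11865 genes were tested with limma-voom over the 73 gastrocnemius libraries, and 797 genes (6.72%) were called, which needed both a change of more than 1.5-fold and a Benjamini-Hochberg adjusted p below 0.05. Of these, 501 genes (4.22%) were higher at 24 months and 296 (2.49%) lower. Past 2-fold there were 142 higher and 69 lower. The median change over all genes tested was 0.01 on the log2 scale, and the median size of a called change was 0.79. Scaling by the total count in place of trimmed means moved the median of all genes to 0.14 and the split to 844 higher and 151 lower, so a small fall given here depends on the scaling more than a rise does. The groups overlapped for nearly every gene. In only 30 genes (0.253%) did no library of 1 age reach into the range of the other, 22 of them (0.185% of all genes) with every 24-month library below and 8 (0.0674%) with every one above.

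**Figure D1:**
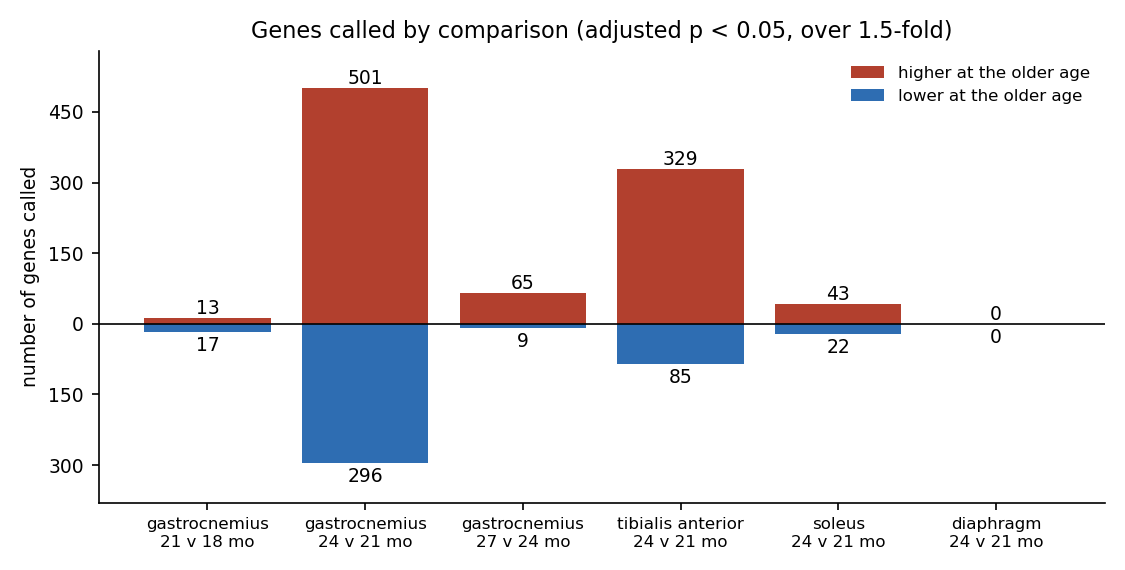
Number of genes called in each comparison, higher at the older age above the line and lower below it. The gastrocnemius step from 21 to 24 months (501 and 296) stood beside 13 and 17 for the step before it and 65 and 9 for the step after it, and the tibialis anterior gave 329 and 85 for the same ages.

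The muscle acetylcholine receptor opens when the nerve releases its transmitter. Its embryonic form carries the gamma subunit and its adult form the epsilon subunit. Of 5 subunit genes tested, 3 rose and 0 fell, with a median change of 1.06 on the log2 scale. Beside this and each list count of calls below stand the shares over all genes tested, 4.22% higher and 2.49% lower. List counts at an unadjusted p under 0.05 stand beside 5223 of all 11865 genes tested. Those at an adjusted p under 0.05 with any fold stand beside 1919 genes higher and 2034 lower. Chrna1, the alpha subunit that binds the transmitter, lay between 4.73 and 7.27 log2 CPM at 21 months (median 6.22) and between 6.86 and 8.93 at 24 months (median 7.94). It rose by 1.79 ± 0.28 (SE) on the log2 scale, 3.46-fold (adjusted p = 2.2e-06), and 7 of the 9 older libraries lay above all younger ones. Chrng, the embryonic gamma subunit, went from a range of 0.97 to 3.6 log2 CPM (median 2.95) to one of 3.02 to 5.52 (median 4.02). Its rise was 1.35 ± 0.27 (SE, adjusted p = 0.0001). Chrnd, the delta subunit, went from 4.56 to 6.36 log2 CPM (median 5.58) to 5.86 to 7.43 (median 6.61), a rise of 1.06 ± 0.17 (SE, adjusted p = 6.6e-06). The libraries of the 2 ages overlapped at all 3 genes, by the lowest older and the highest younger ones.

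The other 2 subunits moved less. Chrne, the adult epsilon subunit, lay between 3.10 and 3.95 log2 CPM (median 3.47) at 21 months and between 3.73 and 4.78 (median 3.87) at 24 months, a difference of 0.55 ± 0.14 (SE, adjusted p = 0.00162) that stayed under 1.5-fold and passed it with total-count scaling. Chrnb1, the beta subunit, differed by 0.24 ± 0.07 (SE, adjusted p = 0.00628), again under 1.5-fold.

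Among 11 genes that organize the junction, 1 rose and 0 fell, and the median was -0.04. The one was Musk, the receptor kinase that gathers receptors under the nerve ending, which went from 2.85 to 4.57 log2 CPM (median 3.50) to 3.72 to 5.38 (median 4.86). It rose by 1.21 ± 0.19 (SE, adjusted p = 3.1e-06), with 7 of 9 older libraries above all younger ones. The next members, named after their values were seen, give the contrast. Lrp4, the agrin receptor that works with Musk, differed by 0.40, and Ache, which breaks down acetylcholine, by -0.50, neither past 1.5-fold. The median of this list turned positive, at 0.09, with total-count scaling.

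**Figure D2:**
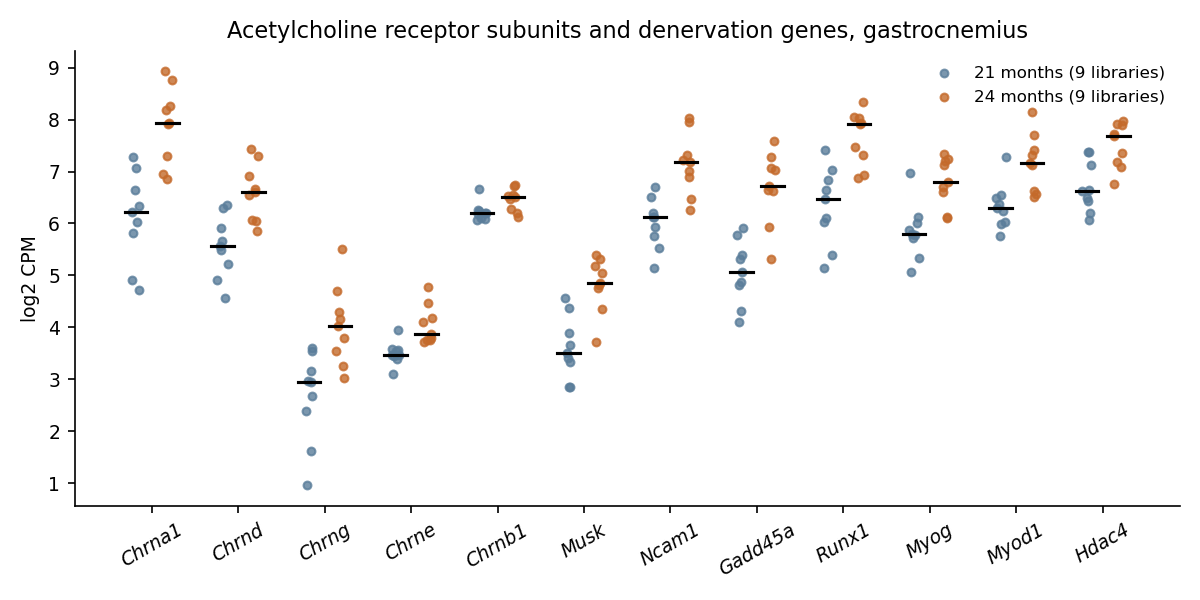
Level in log2 CPM of 12 acetylcholine receptor, junction and denervation genes in each gastrocnemius library, 9 at 21 months (blue) and 9 at 24 months (orange), with the median as a bar. The medians of Chrna1 were 6.22 and 7.94 and those of Chrnb1 6.20 and 6.52, and the 2 ages overlapped for every gene shown.

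The denervation list held 13 tested genes, of which 8 rose and 0 fell, with a median of 0.85. Gadd45a, a stress gene that denervated fibers switch on through Hdac4, lay between 4.11 and 5.91 log2 CPM at 21 months (median 5.07) and between 5.31 and 7.58 at 24 months (median 6.72). It rose by 1.63 ± 0.25 (SE, adjusted p = 1.6e-06), and 8 of 9 older libraries lay above all younger ones. Runx1, a transcription factor that limits wasting in denervated muscle, went from a median of 6.47 to 7.91, a rise of 1.32 ± 0.23 (SE, adjusted p = 1.7e-05). Ncam1, an adhesion molecule that spreads over the denervated fiber, rose by 1.15 ± 0.17 (SE) from a median of 6.12 to 7.19, and Hdac4 itself, the deacetylase of that pathway, by 0.80 ± 0.16 from 6.62 to 7.68.

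Developmental and re-expressed muscle genes moved alike in part. Of 11 tested, 6 rose and 0 fell, with a median of 0.84. Myh3, the embryonic myosin heavy chain, lay between 6.18 and 7.33 log2 CPM at 21 months (median 7.04) and spread from 6.51 to 11.03 at 24 months (median 8.13). It rose by 1.65 ± 0.30 (SE, adjusted p = 3.8e-05), with 7 of 9 older libraries above all younger ones. Myh8, the newborn myosin, did not follow, at a median of 5.62 and then 5.34 and a difference of -0.32 ± 0.12 (SE). Ankrd1, a stretch-sensing ankyrin repeat protein, rose by 1.59 ± 0.28 (SE) from a median of 6.51 to 8.51. Sln, sarcolipin, which uncouples the calcium pump of the sarcoplasmic reticulum, rose by 1.30 ± 0.21 from 4.02 to 5.83.

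The myogenic regulators and satellite cell genes gave 6 rises and 0 falls among 19 tested, with a median of 0.23. Myog, myogenin, went from a range of 5.07 to 6.97 log2 CPM (median 5.79) to 6.11 to 7.33 (median 6.80), a rise of 0.96 ± 0.19 (SE, adjusted p = 9.6e-05). Myod1, the factor that commits cells to muscle, rose by 0.85 ± 0.19 (SE) from a median of 6.30 to 7.17. Both Myog and Myod1 are also among the called genes of the denervation list. Pax3, a transcription factor of muscle precursors, rose by 1.04 ± 0.40 (SE, adjusted p = 0.0361) from a very low median of -1.98 log2 CPM, and the call was lost without any of 6 single libraries.

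**Figure D3:**
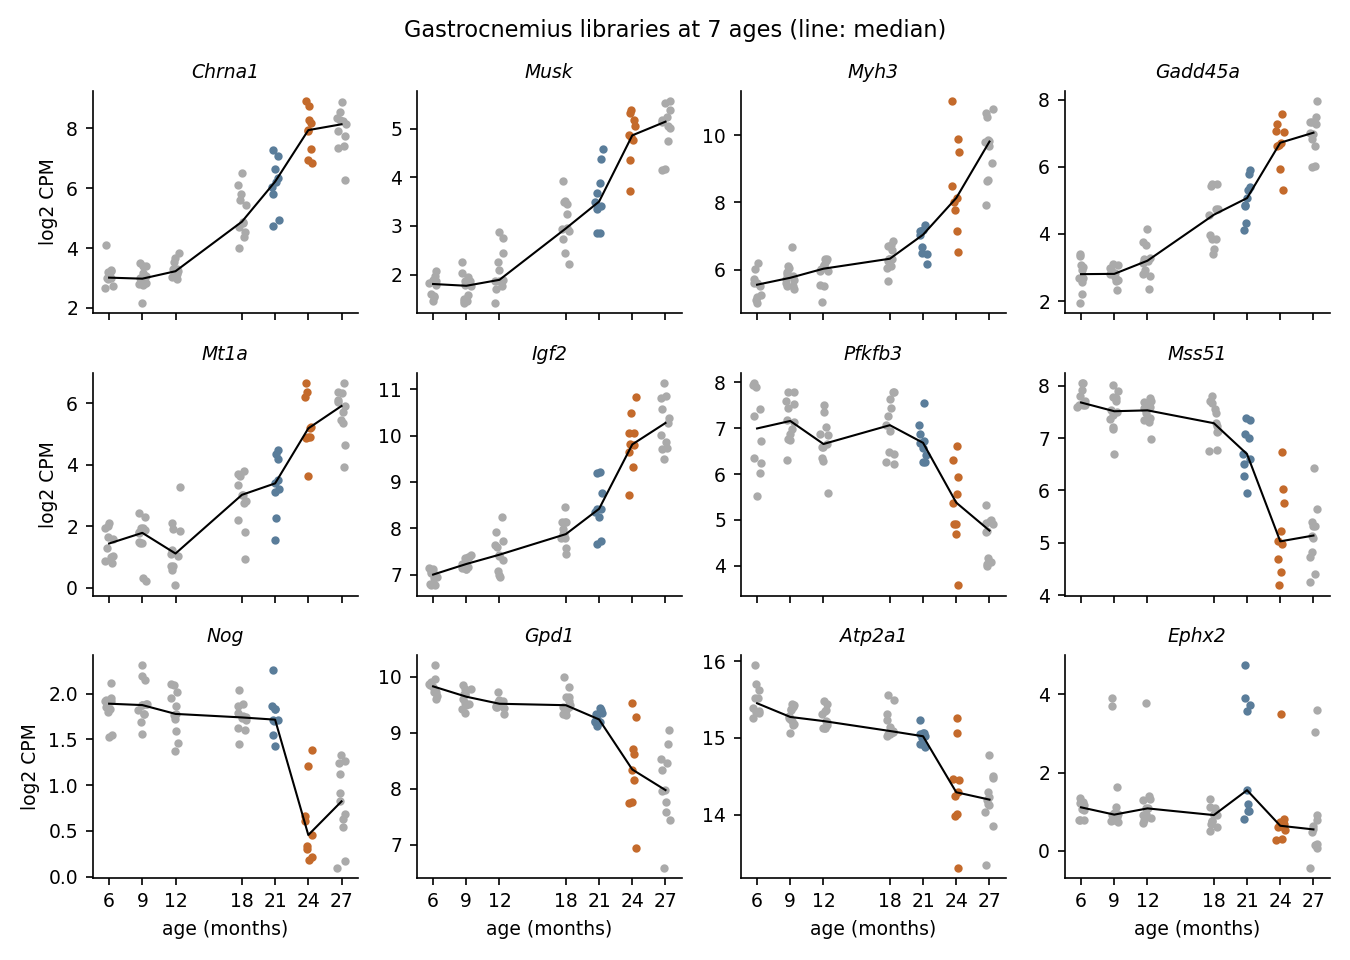
Level in log2 CPM of 12 genes in every gastrocnemius library by age in months (gray, with 21 months in blue and 24 months in orange), with a line through the medians. Chrna1 climbed from a median of 3.22 at 12 months to 4.88 at 18, 6.22 at 21 and 7.94 at 24 months and stood at 8.14 at 27 months, while Nog stayed near 1.7 to 1.9 up to 21 months and had a median of 0.46 at 24 months.

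Growth arrest genes followed the same direction. Of 17 targets of p53 and inhibitors of the cell cycle, 6 rose and 0 fell, with a median of 0.32. Cdkn1a, the p21 inhibitor of cyclin-dependent kinases, went from 6.60 to 8.84 log2 CPM (median 7.75) to 7.79 to 10.27 (median 9.48), a rise of 1.52 ± 0.27 (SE, adjusted p = 2.3e-05), and Cdkn2b, the p15 inhibitor, rose by 1.00 ± 0.18 from 3.45 to 4.46. Gadd45a stands in this list too.

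Metallothioneins are small proteins that hold zinc and copper. With the zinc transporters, 4 of 10 rose and 0 fell, with a median of 0.50. Mt1a lay between 1.56 and 4.49 log2 CPM at 21 months (median 3.39) and between 3.64 and 6.65 at 24 months (median 5.18). It rose by 1.95 ± 0.33 (SE, adjusted p = 1e-05), and 8 of 9 older libraries lay above all younger ones. Mt2A rose by 1.04 ± 0.30 (SE) from a median of 1.69 to 3.01, and Slc30a2, a zinc exporter, by 0.89 ± 0.24 from 1.03 to 2.14, with wide overlap.

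The 12 largest rises, taken by a fixed rule among genes with a mean over 1 log2 CPM, included Chrna1 and Mt1a above. Emb, embigin, an adhesion molecule of the membrane, led them. It went from a range of 0.91 to 4.53 log2 CPM (median 2.56) to 3.41 to 6.10 (median 5.25) and rose by 2.31 ± 0.31 (SE, adjusted p = 2.8e-07). Myo5b, a myosin that moves vesicles, rose by 2.11 ± 0.44 (SE) from a median of 0.54 to 2.98. Ppp1r14c, an inhibitor of protein phosphatase 1, rose by 1.99 ± 0.27 from 3.97 to 6.22. Krt18, a keratin, rose by 1.95 ± 0.38 from 0.78 to 2.51, and Prrg4, a membrane protein, by 1.85 ± 0.28 from 1.94 to 4.12. Faah, which breaks down endocannabinoids, rose by 1.83 ± 0.27 from a median of 2.01 to 4.23. Dclk1, a kinase that binds microtubules, rose by 1.71 ± 0.27 from 6.39 to 8.19. The last were Abcb1b, a drug efflux pump, at 1.69 ± 0.30, and Tph1, the enzyme that starts serotonin synthesis, at 1.66 ± 0.29. In each of the rises named here the median at 24 months lay above the highest 21-month library.

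Of the 12 largest falls, Nog was the one with no overlap between the ages. Nog, noggin, which binds and blocks bone morphogenetic proteins, lay between 1.43 and 2.26 log2 CPM at 21 months (median 1.72) and between 0.19 and 1.38 at 24 months (median 0.46), and fell by 1.17 ± 0.14 (SE; log2 scale; adjusted p = 3.3e-08). Unc5a, a netrin receptor, fell by 1.63 (SE 0.32) from a median of 1.98 to 0.39. Mss51, a muscle protein tied to mitochondrial metabolism, went from 5.95 to 7.39 log2 CPM (median 6.69) to 4.19 to 6.74 (median 5.03) and fell by 1.53 (SE 0.21, adjusted p = 5.7e-07). Lmod1, leiomodin, which starts actin filaments, fell by 1.51 (SE 0.25) from 4.62 to 2.55. Pfkfb3, the enzyme whose product switches on phosphofructokinase, fell by 1.39 (SE 0.29) from a median of 6.68 to 5.38. In these 4 genes the lowest 21-month library lay above the 24-month median, though the highest 24-month library reached into the younger range.

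The other falls of that set were Tmem132b at -1.34, Lingo4 at -1.22, Espl1 (separase, which splits sister chromatids) at -1.22, Hcn4 (a pacemaker channel) at -1.21, Sbk2 at -1.14, Ubxn10 at -1.11 and Ephx2 at -1.42. Ephx2, soluble epoxide hydrolase, had 2 levels. With a cut at 2.5 log2 CPM set after the values were seen, 4 of 9 libraries lay above it at 21 months, 1 of 9 at 24 months, 0 of 11 at 18 months and 2 of 11 at 27 months, and at 6, 9 and 12 months 0 of 10, 2 of 12 and 1 of 11, with no library between 1.64 and 3.02. Its fall is therefore carried in part by which libraries held the high level (SE 0.49, adjusted p = 0.0199), and the call was lost without 21-month replicate 5. The low level of Ephx2 was also lower at the older age, reaching up to 1.55 log2 CPM at 21 months and 0.80 at 24 months. Of the 9 older libraries 7 lay below all younger ones.

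Among the other genes whose libraries did not overlap, Tox2, a nuclear factor, lay between 1.08 and 1.60 log2 CPM at 21 months and between -0.06 and 0.72 at 24 months, and fell by 0.94 (SE 0.15, adjusted p = 3.8e-06). The next were picked after their values were seen. Fzd9, a Wnt receptor, fell by 0.89 (SE 0.17) from a range of 3.61 to 4.32 to one of 2.77 to 3.45. Asb11, a ubiquitin ligase adaptor, fell by 0.80 (SE 0.12) from 5.89 to 6.17 down to 4.33 to 5.85. Fndc5, the precursor of irisin, differed by -0.52 without overlap and without passing 1.5-fold. On the higher side Tifa, an adaptor in NF-kappaB signaling, rose by 0.64 ± 0.12 (SE) from a range of 1.60 to 2.04 to one of 2.17 to 2.90.

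Of 23 enzymes of glycolysis and glycogen breakdown, the fuel of fast fibers, 8 were called lower and 0 higher. Over all genes tested 2.49% were called lower. The median of the list was -0.52 beside 0.01 for all genes tested. With total-count scaling 3 of the 23 were called and the median was -0.39. Gpd1, which feeds the glycerol phosphate shuttle, lay between 9.13 and 9.44 log2 CPM at 21 months (median 9.24) and spread from 6.94 to 9.52 at 24 months (median 8.34), and fell by 0.94 (SE 0.19, adjusted p = 0.00017). Phkg1, the catalytic subunit of phosphorylase kinase, fell by 0.82 (SE 0.16) from a median of 6.83 to 6.04. Pfkm, muscle phosphofructokinase, fell by 0.77 (SE 0.14) from 11.13 to 10.23. In all 3 genes 7 of 9 older libraries lay below all younger ones.

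The fast fiber list pointed the same way with smaller values. Of 14 genes, 3 fell and 0 rose, with a median of -0.29. Atp2a1, the calcium pump of fast fibers, lay between 14.88 and 15.23 log2 CPM at 21 months (median 15.02) and spread from 13.31 to 15.26 at 24 months (median 14.29). It fell by 0.68 (SE 0.13, adjusted p = 8.2e-05). Actn3, the alpha-actinin of fast fibers, fell by 0.64 (SE 0.15) and Eno3, muscle enolase, by 0.59 (SE 0.13). With total-count scaling none of these 3 kept its call, at -0.54, -0.50 and -0.45. Without 24-month replicate 7 none of them was called, and Eno3 lost the call in 9 of 18 fits that left out 1 library. The muscle fiber markers gave 1 fall among 6 tested, that of Ckm by 0.60 (SE 0.14), which that scaling also took to -0.46 and out of the call, as did 8 of the 18 fits.

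No adult myosin heavy chain was called. Myh4 differed by -0.52 ± 0.20 (SE, adjusted p = 0.0344), with libraries between 15 and 15.36 log2 CPM at 21 months and between 13.42 and 15.73 at 24 months, so that 6 older libraries lay below all younger ones and 2 above. Myh1 differed by -0.33 ± 0.11 (SE), Myh2 by -0.23 ± 0.21 and Myh7, the slow form, by -0.36 ± 0.20. Of 11 slow fiber genes none was called by limma-voom, edgeR or DESeq2. Only 2 of them had an unadjusted p under 0.05, beside 5223 of all 11865 genes tested. Their median was -0.20.

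Genes for mitochondrial respiration lay lower by amounts mostly under the fold threshold. Over all 11865 genes tested 5699 changes were negative, and 2034 genes were lower at an adjusted p under 0.05 with any fold. Of 34 complex I genes 1 was called lower, Ndufs7, which fell by 0.71 (SE 0.14, adjusted p = 6.5e-05) from a median of 7.62 to 6.78 log2 CPM. But 33 of 34 changes were negative, 23 of them at an adjusted p under 0.05, and the median was -0.31. Of 35 genes of complexes II to V, all 35 changes were negative and 27 had an adjusted p under 0.05, with a median of -0.38 and a range of -0.57 to -0.12. The citric acid cycle list had a median of -0.29 over 27 genes and fatty acid oxidation one of -0.24 over 26, with 17 and 10 genes lower at an adjusted p under 0.05. None of these 3 lists held a call by limma-voom, edgeR or DESeq2. Their genes with an unadjusted p under 0.05 numbered 28, 20 and 15, beside 5223 of all 11865 genes tested. With total-count scaling the medians were -0.18 for complex I, -0.24 for complexes II to V, -0.14 for the cycle and -0.10 for fatty acid oxidation, and Ndufs7 was no longer called.

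Regulators of mitochondrial number and fuel use gave 3 falls and 0 rises among 19, with a median of -0.23. Perm1, a muscle coactivator of that program, fell by 0.69 (SE 0.17) from a median of 8.49 to 7.90 log2 CPM. Nr4a1, a nuclear receptor induced by contraction, fell by 0.67 (SE 0.19) from 8.03 to 7.42. Esrra, the estrogen-related receptor alpha, fell by 0.62 (SE 0.14) from 5.92 to 5.06. All 3 lost the call with total-count scaling and without 24-month replicate 7, Nr4a1 also without 21-month replicate 4 and Esrra in 5 of 18 such fits. Ppargc1a, the coactivator PGC-1alpha, differed by -0.01 (95% interval -0.27 to 0.24). Of 69 mitochondrial ribosome genes and 16 of ketone and branched-chain metabolism none was called by the 3 tools. An unadjusted p under 0.05 was found for 32 and 10 of them, beside 5223 of all 11865 genes tested. The medians of these 2 lists were -0.11 and -0.20, the first of which turned to 0.02 with total-count scaling.

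**Figure D4:**
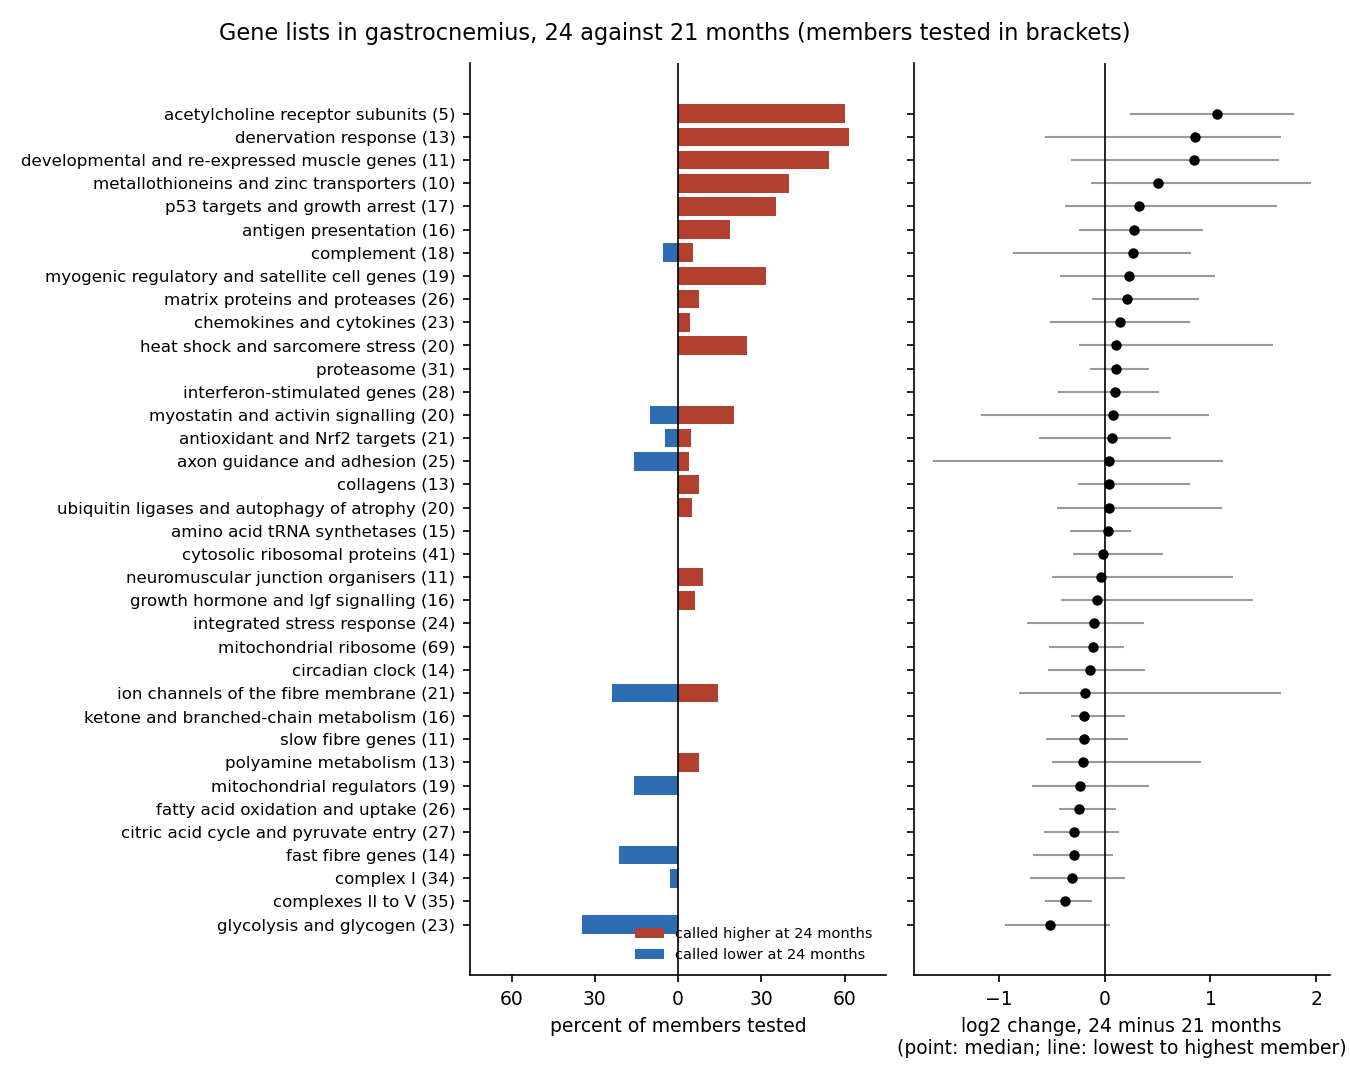
Gene lists in gastrocnemius at 24 against 21 months. The left panel gives the percent of tested members called higher (red) or lower (blue), the right panel the median log2 change (point) and the lowest and highest member (line). Acetylcholine receptor subunits (3 of 5), denervation genes (8 of 13) and developmental and re-expressed muscle genes (6 of 11) stood at the top, and glycolysis and glycogen (8 of 23 lower) at the bottom, beside 4.22% higher and 2.49% lower over all genes tested.

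Protein breakdown genes moved by amounts mostly under the fold threshold. Of 20 ubiquitin ligase and autophagy genes 1 rose and 0 fell, with a median of 0.04. The one was Fbxo30, the ligase known as MUSA1, which went from 5.35 to 6.94 log2 CPM (median 6.11) to 6.26 to 7.78 (median 7.27) and rose by 1.11 ± 0.21 (SE, adjusted p = 4.8e-05). The ligases most used as markers of atrophy stayed under the threshold. Trim63 (MuRF1) differed by 0.34 ± 0.11 (SE, 95% interval 0.12 to 0.56) and Fbxo32 (atrogin-1) by 0.00 ± 0.11 (95% interval -0.23 to 0.23). Of 31 proteasome genes none was called by the 3 tools and 19 had an unadjusted p under 0.05, with 28 changes positive and a median of 0.11. At an adjusted p under 0.05 with any fold 13 proteasome genes were higher and 0 lower. In the ligase and autophagy list 7 were higher and 3 lower. Over all 11865 genes tested 1919 were higher and 2034 lower at that threshold.

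The integrated stress response had no call among 24 genes with limma-voom, where 7 had an unadjusted p under 0.05 and edgeR and DESeq2 called 1 each. Atf4, its main transcription factor, went from a median of 7.96 to 7.49 log2 CPM and differed by -0.50 ± 0.10 (SE, adjusted p = 0.00017), under 1.5-fold. Chac1 differed by -0.74 ± 0.33 (adjusted p = 0.0719) and Gdf15 by 0.34 ± 0.37 (95% interval -0.39 to 1.07), both at low or spread levels, and Fgf21 was too low to be tested.

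In the growth hormone and Igf list 1 of 16 genes rose and 0 fell, with a median of -0.07 that turned to 0.06 with total-count scaling. Igf2, a fetal growth factor, lay between 7.66 and 9.21 log2 CPM at 21 months (median 8.42) and between 8.72 and 10.83 at 24 months (median 9.81). It rose by 1.40 ± 0.19 (SE, adjusted p = 2.8e-07), with 8 of 9 older libraries above all younger ones. Igf1 differed by 0.46 ± 0.14 (SE, adjusted p = 0.00818) and passed 1.5-fold only with total-count scaling. Cish, a target of Stat5, spread from 1.81 to 4.71 log2 CPM and then from 0.85 to 4.66, with a difference of -0.40 ± 0.85.

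Myostatin and activin signaling gave 4 rises and 2 falls among 20, with a median of 0.08. Fst, follistatin, which binds activin and myostatin, rose by 0.99 ± 0.17 (SE) from a median of 3.03 to 4.03 log2 CPM, and Tgfb2 by 0.86 ± 0.15 from 5.98 to 7.03. The fall of Nog stands in this list as well.

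Ion channels of the fiber membrane split into 3 rises and 5 falls among 21, and into 4 and 1 with total-count scaling. Kcnn3, the SK3 potassium channel of embryonic and denervated fibers, rose by 0.91 ± 0.13 (SE, adjusted p = 1.5e-06) from a median of 6.19 to 7.12 log2 CPM. Kcna7 fell by 0.81 (SE 0.13, adjusted p = 7.3e-06) from 6.96 to 6.05. Axon guidance and adhesion genes gave 1 rise and 4 falls among 25, and 2 of each with total-count scaling. Sema3a, a repellent of motor axons, rose by 1.10 ± 0.28 (SE) from a median of 0.88 to 2.16, and Sema7a fell by 0.99 (SE 0.19) from 6.43 to 5.07.

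Heat shock and sarcomere stress genes gave 5 rises and 0 falls among 20, with a median of 0.11. Ankrd1 led them, Mustn1 rose by 0.81 ± 0.27 (SE), and Hspb8, a small heat shock protein, by 0.60 ± 0.10 from a median of 9.21 to 9.93 log2 CPM, a call lost in 9 of 18 fits that left out 1 library. Antioxidant genes gave 1 rise, Hmox1 (heme oxygenase) by 0.63 ± 0.20, and 1 fall, Osgin1 by 0.62 (SE 0.20), among 21. Their calls were lost in 4 and 5 of those 18 fits, and with total-count scaling the list had 3 rises and 0 falls. Among 13 polyamine genes Sat1, the enzyme that marks polyamines for export or breakdown, rose by 0.91 ± 0.18 (SE) from 4.55 to 5.64, and 0 fell. Odc1, Amd1 and Smox, 3 other enzymes of that pathway, differed by 0.31, -0.32 and -0.50, all under 1.5-fold.

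Of 16 antigen presentation genes 3 rose and 0 fell, with a median of 0.28 and the same counts with total-count scaling. B2m, the light chain of class I molecules, lay between 8.33 and 9.47 log2 CPM at 21 months (median 8.87) and between 9.17 and 10.39 at 24 months (median 9.99), and rose by 0.93 ± 0.13 (SE, adjusted p = 3.9e-07). The class I genes RT1-A2 and RT1-CE5 rose by 0.85 ± 0.23 and 0.74 ± 0.14, and since such genes are near-identical copies, reads may have been split between them. Cd74, of class II, differed by 0.35 ± 0.13. Of 18 complement genes 1 rose and 1 fell, the latter C3, by 0.87 (SE 0.28), and with total-count scaling 3 rose and 1 fell. C3 is also made by the liver, and its change was 0.28 with the liver covariate. Of 23 chemokines and cytokines Ccl2 rose by 0.59 ± 0.24 (adjusted p = 0.0494) and lost the call in 14 of 18 fits that left out 1 library, while total-count scaling gave 3 rises in this list. Among 28 interferon-stimulated genes limma-voom called none, with 9 at an unadjusted p under 0.05 and 2 called by each of edgeR and DESeq2.

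The matrix gave few calls. Of 26 matrix proteins and proteases 2 rose and 0 fell, Postn (periostin) by 0.89 ± 0.22 (SE) from a median of 4.95 to 5.73 log2 CPM and Ogn by 0.87 ± 0.20 from 6.03 to 6.97. Of 13 collagens 1 rose, Col23a1 by 0.81 ± 0.25, and Col1a1 differed by -0.01 (95% interval -0.39 to 0.38). Cytosolic ribosomal proteins (41 tested), tRNA synthetases (15) and clock genes (14) gave no call by the 3 tools, with 11, 8 and 2 genes at an unadjusted p under 0.05 and medians of -0.02, 0.03 and -0.14.

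Markers of other cell types gave few calls. In bulk tissue fewer cells of a type and less RNA per cell cannot be told apart. All 8 endothelial markers had negative changes, 2 of them called, Egfl7 by -0.60 ± 0.17 (SE) and Cldn5 by -0.59 ± 0.13, and the summed level of the list ran from 301 to 377 CPM at 21 months and from 238 to 322 at 24 months. With total-count scaling neither was called, and without single libraries the calls were lost in 6 and 8 of 18 fits. The 12 macrophage markers had a median of 0.34 with no call by limma-voom, 7 at an unadjusted p under 0.05 and 1 called by each of edgeR and DESeq2, but total-count scaling called 3 higher with a median of 0.47. Their sum ran from 126 to 280 CPM and then from 216 to 380. The fibroblast markers summed to 987 to 1580 CPM and then 1250 to 1900, and the tenocyte markers to 300 to 703 and then 473 to 1120. Smooth muscle and pericyte markers summed to 201 to 350 CPM and then 194 to 335, red cell markers to 142 to 315 and then 116 to 264, and Schwann cell markers to 44.7 to 68.4 and then 44.9 to 69.5. Adipocyte markers summed to 52.5 to 75.8 CPM and then 51.7 to 80.4, T cell markers to 6.75 to 14.5 and then 9.82 to 19.1, and neutrophil and mast cell markers to 8.21 to 12.9 and then 9.24 to 15.7. Limma-voom, edgeR and DESeq2 called none of these last 8 lists' members, with 4, 2, 2, 1, 0, 0, 1 and 0 genes at an unadjusted p under 0.05 in that order, while total-count scaling called 1 tenocyte and 1 T cell marker higher. B cell and plasma cell markers, at most 0.476 CPM in sum, were too low for any member to be tested. The liver list gave 3 falls among 4 tested, Alb by 5.21 on the log2 scale with an SE of 1.51, Serpina1 by 3.23 with an SE of 0.86, and Ahsg, for which no fold is given because all 9 older libraries held 0 counts. For the same ages the median of this list was -3.10 in the tibialis anterior, with 1 member called lower. It was -4.26 in the soleus and -0.08 in the diaphragm, with 0 called in each. The part of the liver transcripts in what the muscles share was not tested.

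The neighboring 3-month steps gave fewer calls. At 21 against 18 months 30 genes (0.253%) were called, and at 27 against 24 months 74 (0.624%). A count past a threshold does not show that steps differ, and so the difference of the steps was tested. It passed for 107 genes (0.902%) between the step from 21 to 24 and the one from 18 to 21 months, and for 268 genes (2.26%) between the step from 24 to 27 and the one from 21 to 24. These tests share libraries with the comparison itself, and both counts moved strongly with single libraries, from 23 to 437 and from 32 to 1125.

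The receptor subunits show how the steps relate. Chrna1 changed by 0.95 from 18 to 21 months (adjusted p = 0.0545), by 1.79 from 21 to 24 and by 0.03 from 24 to 27 months. The last step was smaller than the one from 21 to 24 months by 1.77 (adjusted p = 0.0247 for the difference of the steps), but the step before was not shown to be smaller (difference 0.84, adjusted p = 0.301). Chrnd had risen already from 18 to 21 months, by 0.84 (adjusted p = 0.00645), and Chrng by 1.33 (adjusted p = 0.0263), with step differences of 0.22 and 0.02 that did not pass. For Musk, Ncam1, Gadd45a and Runx1 the last step was smaller than the step from 21 to 24 months by 1.03, 1.10, 1.34 and 1.51 (adjusted p = 0.0422, 0.0201, 0.0487 and 0.0215), and for none of these 4 did the difference from the earlier step pass. Of all named genes 4 were called from 24 to 27 months, Myh3, Mt2A, Postn and Sln, by 1.09, 0.85, 0.70 and 0.63.

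Of the 107 genes whose step differed from the step before it, 52 differed upward and 55 downward. Nog changed by 0.06 from 18 to 21 months, by -1.17 from 21 to 24 and by 0.22 from 24 to 27, and both differences passed (-1.22, adjusted p = 0.00114, and 1.38, adjusted p = 0.00435). Arhgef37, a guanine nucleotide exchange factor, lay between 4.67 and 5.02 log2 CPM at 21 months and between 3.53 and 4.69 at 24 months, and its change of -0.81 ± 0.09 (SE) differed from the step before by -0.83 (adjusted p = 0.00114). Tox2 differed by -1.27 between these steps and Cxcl12, a chemokine of the vessel and nerve niche, by -0.64. Psd2 had gone up by 1.12 from 18 to 21 months before it went down by 1.23, so its step difference of -2.36 holds both moves. Igf1 was the one gene of the core panel in this test, with -0.41 and then 0.46 (difference 0.87, adjusted p = 0.0456). Spire1, an actin nucleator, rose by 1.01 ± 0.13 from a median of 4.28 to 5.60 and then changed by -0.17. Tmed1, Art5 and Tsc22d3, the last a glucocorticoid-induced gene, went the other way in the step from 24 to 27 months, by 0.33, 0.34 and 0.43, after -0.58, -0.55 and -0.32.

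**Figure D5:**
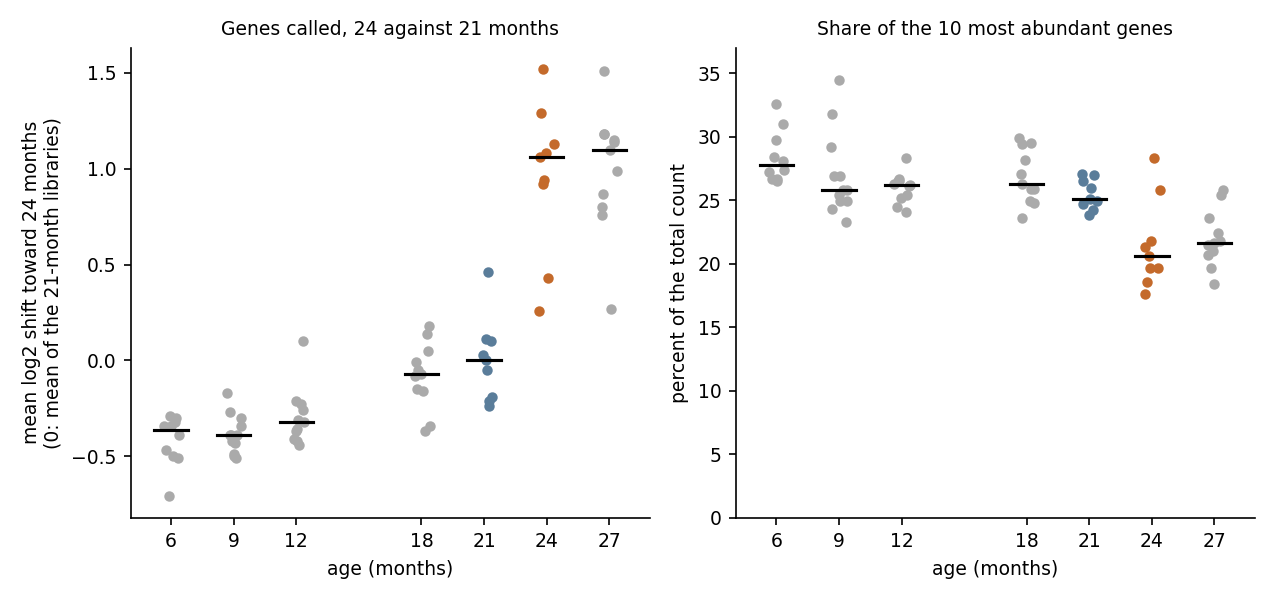
Each gastrocnemius library by age in months, with medians as bars. Left, the mean shift of the 797 called genes toward their 24-month level in log2 units, which is a description at 21 and 24 months because those libraries chose the genes, and which had medians of -0.07 at 18 months and 1.10 at 27 months. Right, the percent of counts in the 10 most abundant genes, with medians of 25.1% at 21 and 20.6% at 24 months.

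The same genes were read in 27 against 18 months, a comparison that shares none of the 18 libraries but comes from the same fit. Of the 501 genes higher at 24 months, 497 (99.2%) had a positive change there and 391 (78.0%) were called higher, beside 7.99% of all genes tested. These 391 were 41.2% of the genes called higher from 18 to 27 months. Of the 296 lower genes, 280 (94.6%) had a negative change and 185 (62.5%) were called lower, beside 3.75% of all genes, and they were 41.6% of the genes called lower there. In all, 1393 genes (11.7%) were called in that wider comparison. No called gene was called in the opposite direction.

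The tibialis anterior had 13 libraries at 21 months and 12 at 24 months, and the soleus and diaphragm 12 at each age. All of them were other libraries than those above, and the labels do not say which came from the same rats. In the tibialis anterior, the fast muscle of the shin, 414 genes (3.52%) were called, 329 higher (2.80%) and 85 lower (0.723%). Of the 488 higher genes of the gastrocnemius that were tested there, 451 (92.4%) had a positive change and 212 (43.4%) were called higher, which was 64.4% of the higher calls of that muscle. Of the 288 lower genes, 285 (99.0%) had a negative change and 55 (19.1%) were called lower, which was 64.7% of its lower calls. The difference of the 2 muscles' steps passed for no gene (0 of 12784) with limma-voom, where 2096 had an unadjusted p under 0.05, and sample quality weights called 293, so that this precision showed neither a difference nor its absence.

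Receptor genes rose in both fast muscles. Chrna1 rose by 1.79 in the gastrocnemius and by 1.74 in the tibialis anterior, Chrnd by 1.06 and 1.43, Chrng by 1.35 and 1.67, and Musk by 1.21 and 1.39. Myh3 rose by 1.65 and 1.09 and Cdkn1a by 1.52 and 1.55. The glycolysis list had a median of -0.52 in the gastrocnemius and -0.24 in the tibialis anterior, where none of its genes was called. Pfkfb3 fell by 1.39 in the first and differed by -0.51 in the second (adjusted p = 0.184), and the difference between them, -0.89, did not pass (adjusted p = 0.17).

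The soleus, a slow muscle, gave 65 calls (0.534%) and the diaphragm none (0%) with limma-voom, where 883 diaphragm genes had an unadjusted p under 0.05 and edgeR called 1, DESeq2 4 and quality weights 3. In edgeR and DESeq2 the soleus gave 225 and 236. The step of the gastrocnemius differed from that of the soleus for 296 genes (2.32%) and from that of the diaphragm for 430 (3.36%). Chrna1 changed by 0.52 in the soleus and 0.08 in the diaphragm, and the gastrocnemius step was larger by 1.27 (adjusted p = 0.0224) and by 1.71 (adjusted p = 0.00239). Chrnd changed by 0.04 and 0.06, and Musk by 0.15 and 0.04, with differences that passed against both muscles. Sln changed by 0.24 and -0.11, and the gastrocnemius step was larger by 1.05 and 1.40. Chrne, uncalled in the gastrocnemius, still differed from the diaphragm by 0.93 (adjusted p = 0.00026), where it changed by -0.39. Gpd1, Phkg1 and Pfkm, which fell in the gastrocnemius, changed by 0.45, 0.02 and -0.08 in the soleus and by -0.09, -0.03 and -0.09 in the diaphragm, and all 6 differences from the gastrocnemius passed. Runx1 and Ankrd1 changed by 0.90 and 1.49 in the diaphragm without a call, and their steps were not shown to differ from the gastrocnemius in either muscle.

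How far the values above held depended on the setting. When 24 months was represented by only the 2 libraries whose label numbers fall within the span of the 21-month numbers, replicates 0 and 1, 5 genes were called. Replicate 0 is also the older library nearest to 21 months. With the label number as a covariate over all libraries there were 650 calls, 624 of them (78.3%) among the 797, and no called gene changed sign. With the mean liver level as a covariate there were 348 calls, 323 of them among the 797, and 11 of the 797 changed sign. With the share of the 10 most abundant genes there were 279, of which 258 were among the 797, and 2 changed sign. Leaving out single libraries gave between 580 and 1195 calls, the lowest without 24-month replicate 7 and the highest without 24-month replicate 0.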

How the data were processed

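Muscle RNA kept in RNAlater was extracted, depleted of ribosomal RNA and made into strand-specific libraries, according to the study's methods. The authors deposited raw counts per gene for each library without normalization, which the study applied with limma in its own analysis. The counts were made with ArrayStudio against a rat reference older than GRCr8 and an in-house RefSeq gene model. Each file held 17870 gene lines, and lines of 1 symbol were summed to 17315 symbols. Names were matched to RefSeq (GRCr8), where 14810 symbols were current. Groups came from the sample titles. Genes were kept with filterByExpr by age (minimum count 10, minimum total 15), scaled by TMM in edgeR 4.0.16 and tested with limma-voom (limma 3.58.1, R 4.3.3) over all 73 gastrocnemius libraries, two-sided. The muscles were compared in 1 fit of the whole series. That fit had no term for the rat, so muscles that may come from the same animal were treated as independent. Levels are log2 CPM with a prior count of 0.5, and they do not compare genes, whose lengths differ. SE is that of the fit. Each group of 9 limits the precision to a median SE of 0.103 on the log2 scale.

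Named genes are the 12 largest rises and the 12 largest falls with a mean over 1 log2 CPM, a core panel, up to 3 called members per list and the 5 with the smallest p past 1.5-fold in each step difference. The members and lists were chosen with earlier results of these data known. Exact permutation tests ran over all 48620 label assignments. Some genes the rule picks are not reported here. The code was tested on simulated data. Alternatives covered scaling, filter, tool (edgeR's quasi-likelihood test, DESeq2 1.42.0), weights, covariates, threshold and libraries left out.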

Additional observations from a re-analysis of the deposited data

Results flagged for a closer look

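Of 218 sets of 9 libraries (a named gene or library measure at 1 age) examined for a library standing apart from the other 8 by Dixon's gap rule, 11 (5.05%) held one, and chance gives about 1 set in 20. At 21 months replicate 7 stood apart at 3 genes, with Esrra at 5.01 log2 CPM (next 5.60), Kcna7 at 6.47 (next 6.87) and Tgfb2 at 6.66 (next 6.18). Each of these 3 values lay toward the 24-month level. Replicate 5 stood apart at 3 genes, with Ubxn10 at 0.28 (next 2.05), Chrnb1 at 6.66 (next 6.26) and Myh8 at 6.61 (next 5.80). Sln was lowest in 21-month replicate 0, at 2.95, and Ppargc1a in replicate 8, at 4.66. At 24 months Ephx2 was at 3.50 in replicate 8 (next 0.80), Alb at -0.40 in replicate 7 (next -2.44), and the total count of replicate 0 was 56.6 M (next 37.8 M).

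The step from 21 to 24 months differed between the gastrocnemius and the soleus for 296 genes and between the gastrocnemius and the diaphragm for 430, by interaction contrasts in limma-voom. In the core panel the gastrocnemius step exceeded that of the soleus by 1.41 for Mt1a, 1.27 for Chrna1, 1.14 for Gadd45a, 1.05 for Musk, 1.05 for Sln, 1.01 for Chrnd, 0.92 for Myog and 0.77 for Ncam1 on the log2 scale. Against the diaphragm it was larger by 1.71 for Chrna1, 1.40 for Sln, 1.20 for Cdkn1a, 1.15 for Musk, 1.01 for Gadd45a, 0.99 for Chrnd, 0.93 for Chrne, 0.88 for Ncam1 and 0.75 for Hdac4, and Esrra differed by -0.65.

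Within the gastrocnemius the step differed from the one before it for 107 genes (0.902% of those tested) and from the one after it for 268 (2.26%). Of the named genes 13 passed the first test. The step from 21 to 24 minus that from 18 to 21 months was -2.95 for Ephx2, -2.36 for Psd2, -1.27 for Tox2, -1.22 for Nog, -1.18 for Lingo4, -0.86 for Cldn5, -0.83 for Arhgef37, -0.64 for Cxcl12, 0.83 for Spire1 and 0.87 for Igf1, and the liver genes Alb, Ahsg and Serpina1 passed downward. Of the named genes 31 passed the second. Named genes were picked in part by their change from 21 to 24 months or by these differences themselves. The counts of 13 and 31 were therefore partly fixed by that choice and are a description only. The step from 24 to 27 minus that from 21 to 24 months was -2.02 for Ppp1r14c, -1.98 for Emb, -1.84 for Dclk1, -1.77 for Chrna1, -1.74 for Abcb1b, -1.66 for Faah, -1.62 for Prrg4, -1.51 for Runx1, -1.41 for Tph1, -1.34 for Gadd45a, -1.23 for Fbxo30, -1.18 for Spire1, -1.11 for Chrnd, -1.10 for Ncam1, -1.03 for Musk, -1.03 for Cdkn2b, -0.94 for Kcnn3, -0.91 for Tgfb2, -0.79 for B2m and -0.67 for Hspb8. It was 1.45 for Mss51, 1.38 for Nog, 1.25 for Osgin1, 0.91 for Tmed1, 0.89 for Art5, 0.88 for Cldn5, 0.82 for Kcna7, 0.81 for Ndufs7, 0.75 for Tsc22d3, 0.68 for Arhgef37 and 0.60 for Myh1. The 21-month libraries enter both steps of the first difference, and the 24-month libraries both steps of the second.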

How the results depend on the processing

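The 797 calls, 501 higher and 296 lower, became 215, 135 and 80 under Bonferroni adjustment, 211, 142 and 69 past 2-fold, 844 higher and 151 lower with total-count scaling, 1205 with 460 lower under sample quality weights, 348, 204 and 144 with the liver covariate, 279, 173 and 106 with the share of the 10 most abundant genes as a covariate (both, like the label number as a covariate with 650 calls, chosen after seeing the data), and 5, 4 and 1 with the 24-month libraries inside the number span of the 21-month ones, where 58 of the 797 changed sign, among named genes Ubxn10 (0.42) and Sema3a (-0.14). C3 changed sign with the liver covariate (0.28). The cause of these moves was not tested. Without the filter on low counts there were 914 calls, with edgeR 793 and with DESeq2 800.

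Leaving out 1 library gave 580 to 1195 calls, 374 to 745 higher and 206 to 450 lower, 23 to 437 for the difference from the step before (23 without 21-month replicate 0, 29 without replicate 6, 47 without replicate 8, 64 without replicate 4, 323 without replicate 7; 66 without 24-month replicate 6, 34 without replicate 7, 201 without replicate 3, 437 without replicate 0) and 32 to 1125 for that from the step after (32 without 24-month replicate 6, 58 without replicate 8, 72 without replicate 5, 75 without replicate 7, 128 without replicate 2, 134 without replicate 1, 151 without replicate 4, 575 without replicate 3, 1125 without replicate 0; 177 without 21-month replicate 2, 178 without replicate 8, 528 without replicate 7). Of 83 called named genes 66 were called in each of these 18 fits and 17 were not, and none changed sign. The call was lost in 14 of the 18 fits for Ccl2, 9 for Eno3 and Hspb8, 8 for Ckm and Cldn5, 6 for Egfl7 and Pax3, 5 for Esrra and Osgin1, 4 for Hmox1, 2 for Ubxn10 (24-month replicates 5 and 7) and Nr4a1, and 1 for Atp2a1, Actn3 and Perm1 (24-month replicate 7), Mustn1 (24-month replicate 6) and Ephx2 (21-month replicate 5).

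For 21 against 18 months (30) the count was 3 with Bonferroni, 10 past 2-fold, 18 with total-count scaling, 55 with weights, 52 with edgeR and 61 with DESeq2. For 27 against 24 months (74) it was 12, 15, 171 with weights and 38 with the ribosomal share as covariate. For 27 against 18 months it was 854 with Bonferroni and 517 past 2-fold. The difference from the step before (107) was 5 with Bonferroni, 44 past 2-fold, 38 with total-count scaling, 1015 with weights, 178 with DESeq2 and 199 with the ribosomal covariate, and that from the step after (268) was 5, 73, 1473 with weights, 103 with the ribosomal covariate and 492 with the replicate block. The tibialis anterior gave 131 with Bonferroni and 157 past 2-fold, the soleus 1, 14, 103 without the filter, 13 with weights, 225 with edgeR and 236 with DESeq2, and the diaphragm 3, 1 and 4 with weights, edgeR and DESeq2. The gastrocnemius minus tibialis anterior difference gave 1 with total-count scaling and 293 with weights, that to the soleus 30 with Bonferroni, 85 past 2-fold, 753 with weights and 93 with the 21- and 24-month libraries of the 2 muscles alone, and that to the diaphragm 44, 79 and 934.

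Replicate numbers share only a number. Their 9 pairs correlated between -0.35 and 0.18, 3 of them over 0.1, and 1 of 9 libraries correlated best with its own number. The replicate block gave 785 calls, 761 of them shared with the 797, and changed no call of a named gene.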
